A study of Mus musculus with 10 samples.

Results

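The genes described here are 6 matrix metalloproteinases (MMPs; Mmp2, Mmp3, Mmp9, Mmp12, Mmp13 and Mmp14) and 3 tissue inhibitors of metalloproteinases (TIMPs; Timp1, Timp2 and Timp3). They were chosen by name, as the rows whose Ensembl identifiers carry those symbols, and make up 9 of the 37417 genes in the count table. Bulk RNA-seq was available for 10 subcutaneous (s.c.) tumors of Panc02 cells, a mouse pancreatic cancer line, grown in wild type C57BL/6J mice. The injected cells had received a guide RNA against Cda, the gene of cytidine deaminase (sgCda, 5 tumors), or a control guide with no target (sgNT, 5 tumors). Mice were 12 weeks of age and every tumor was taken at day 16, as labelled. Cells of both groups carried a doxycycline-inducible Cas9 from a lentiviral vector and had been through antibiotic selection and a doxycycline course before they were injected. The guide thus acted in the cancer cells alone, while the RNA came from whole tumors that hold host fibroblasts, vessels and leukocytes as well. In such RNA, fewer cells of a type and less RNA per cell cannot be told apart. The methods describe single-cell cloning of the edited lines and reserve a pool of clones for survival experiments, but do not say outright whether the cells of these tumors were cloned. The same replicate numbers recur in both groups, but the labels do not say whether they pair the tumors.

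MMPs are zinc-dependent endopeptidases that cut collagens, elastin, proteoglycans and other matrix proteins, and also release growth factors and cytokines. Most are secreted as inactive proenzymes, whose prodomain has to be removed before they work, and TIMPs then bind and block the active site. In carcinomas much of the MMP and TIMP RNA is known to come from fibroblasts, macrophages, neutrophils and endothelial cells, and less from the cancer cells. Because activity depends on prodomain removal and on inhibitors, a transcript level is not a measure of protease activity.

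The libraries held 28051907 to 39484964 assigned counts, and levels are given in CPM, the counts of a gene relative to the scaled size of its library. A floor of 3 counts corresponds to 0.0760 to 0.107 CPM, depending on the library. Cda itself averaged 12.1 ± 1.76 CPM without and 9.77 ± 2.34 CPM with the targeting guide (SD). The groups overlapped (edgeR adjusted p = 0.9996), so the level of Cda in whole-tumor RNA does not separate the labels. The paper checked silencing in the edited cells by RT-qPCR and western blotting. It also reported Cda RNA in endothelial cells and fibroblasts sorted from mouse tumors. The share of each cell type in the Cda level here was not tested. Of the keratins of simple epithelium, Krt8 averaged 464 CPM and Krt18 averaged 229 CPM, while the epithelial adhesion gene Epcam averaged only 1.40 CPM. Those 2 keratins do not stand for the 10 epithelial markers listed, of which 8 were tested. The mean log2 CPM of these 8 ran from 2.86 to 3.24 in sgNT and from 2.89 to 3.57 in sgCda tumors. Tumors sgCda 3 and sgCda 4 stood apart: they formed the opposite ends of the first principal component, which took 40.7% of the variance. sgCda 3 also had the largest share of counts from 10 skeletal muscle genes (0.224%, against 0.000594% to 0.0572% in the other 9 tumors), and sgCda 4 was the shallowest library. Results that rest on those tumors are given with and without them.

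All 9 members were expressed well enough to be tested, and none passed the test of sgCda against sgNT tumors. With edgeR's quasi-likelihood test over 15299 genes, 0 of 9 had an adjusted p under 0.05, against 0% of all genes. At an unadjusted p under 0.05 the count was again 0 of 9, against 2.5% of all genes, and groups did not overlap for 0 of 9, against 0.601% of all genes. Of the fold changes, 1 was positive (Mmp9) and 8 were negative, against 7205 negative of the 15299 genes tested. Those of Timp1 (-0.0048) and Timp2 (-0.0017) were very small, and their signs and that of Mmp3 reversed under some alternatives. Several members also varied together from tumor to tumor, so the signs are not independent of each other. The median log2 fold change was -0.26, against 0.0078 over all genes tested. The members were also more uneven within groups than most genes, with a median standard deviation (SD) within groups of 0.44 on the log2 scale, against 0.21 over all genes tested. Their 95% confidence intervals were correspondingly wide, at a median of 1.05 log2 units against 0.56 over all genes tested.

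**Figure D1:**
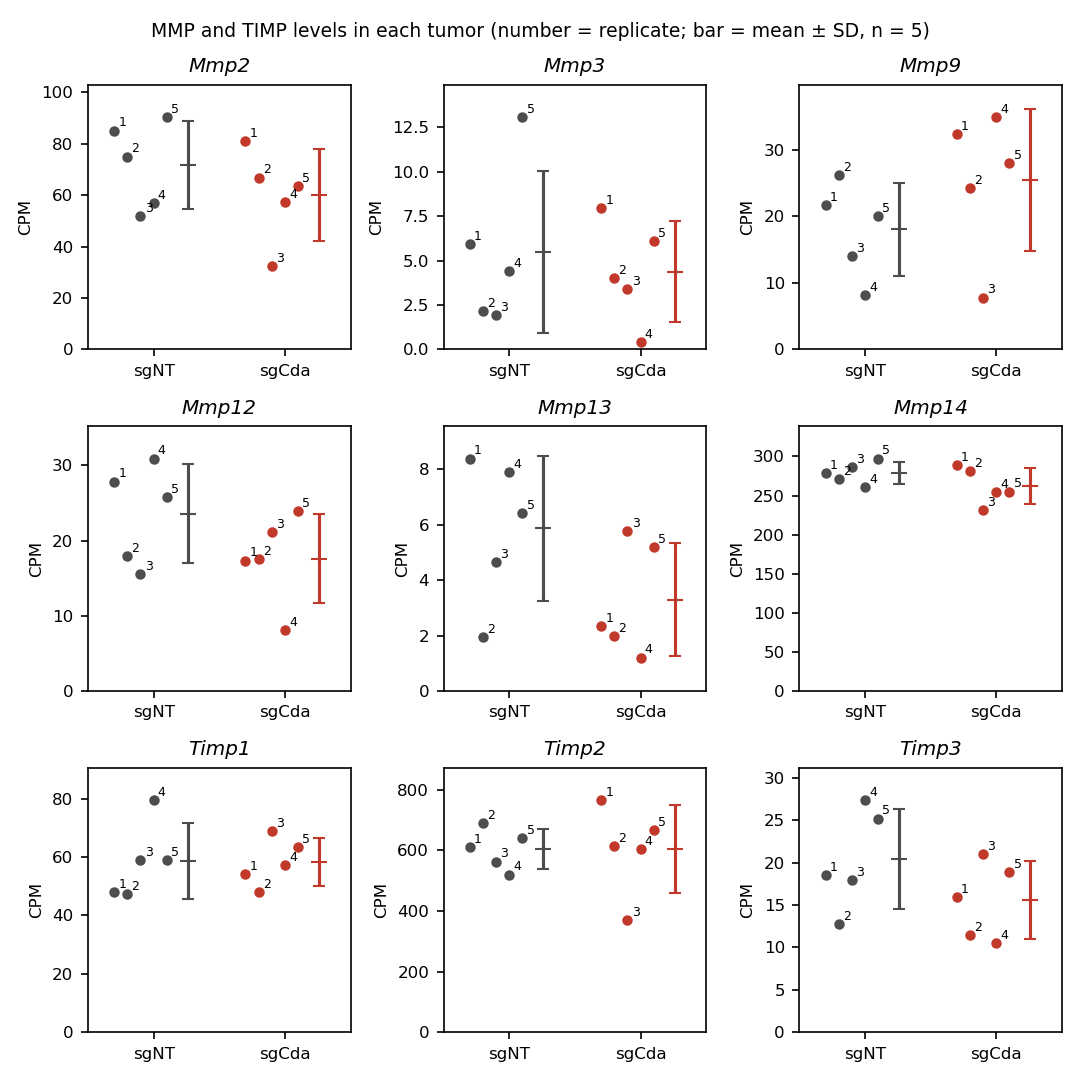
Level of each MMP and TIMP gene in CPM (vertical axis, from 0) in the 5 sgNT tumors (grey) and 5 sgCda tumors (red), with the replicate number beside each point and the mean ± SD beside each group. The groups overlap for all 9 genes, and the lowest point belongs to sgCda 3 or sgCda 4 in every panel except Timp1, where it is sgNT 2.

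Levels varied widely from tumor to tumor within the groups. For 8 of the 9 members the lowest of all 10 values was in sgCda 3 (Mmp2, Mmp9, Mmp14 and Timp2) or in sgCda 4 (Mmp3, Mmp12, Mmp13 and Timp3). The span from lowest to highest tumor ran from 1.29-fold for Mmp14 to 30.7-fold for Mmp3. Mmp3, Mmp13 and Mmp9 had SDs within groups above those of 98.6%, 96.4% and 95.1% of the genes tested, whereas Mmp14 was above 15.1%.

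Of the promoters in the RefSeq table (GRCm38.p6, 250 bases before to 50 bases after a start site), 7 of the 9 members were matched, with 8 start sites. Mmp2 and Mmp9 had no entry, so their promoters were not searched. Shown are the 130 bases before the start, 5′ to 3′ on the gene's own strand, of the 3 members on chromosome 9, which include the most variable ones, and of Timp3, whose level followed that of Mmp13. For Mmp12 it is the second of its listed starts, at 7347374. Capitals mark the letters of an AP-1 element (TGANTCA, bound by Fos and Jun dimers) and of a TATA box (TATAAA), searched on both strands.
Mmp13 (chr9:7272384-7272513, plus strand): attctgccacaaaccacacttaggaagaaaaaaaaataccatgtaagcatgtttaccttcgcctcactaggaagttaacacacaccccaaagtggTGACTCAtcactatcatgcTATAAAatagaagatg
Mmp3 (chr9:7445692-7445821, plus strand): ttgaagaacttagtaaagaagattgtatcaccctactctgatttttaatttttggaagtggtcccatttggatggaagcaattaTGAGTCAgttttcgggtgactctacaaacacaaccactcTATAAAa
Mmp12 (chr9:7347244-7347373, plus strand): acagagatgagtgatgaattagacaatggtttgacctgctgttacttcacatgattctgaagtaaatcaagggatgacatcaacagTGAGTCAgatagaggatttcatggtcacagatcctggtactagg
Timp3 (chr10:86300282-86300411, plus strand): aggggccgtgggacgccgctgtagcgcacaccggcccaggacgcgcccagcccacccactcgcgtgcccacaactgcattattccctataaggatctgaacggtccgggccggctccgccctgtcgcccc
The AP-1 letters began at -35 in Mmp13, -44 in Mmp12 and -46 in Mmp3, counted from the start site. The TATA letters began at -16 in Mmp13, at -7 in Mmp3 and, just after the printed stretch, at 4 in Mmp12. Of all 32851 promoters of this length, 7.81% held the AP-1 letters, 13.6% the TATA letters and 1.54% both. Mmp3, Mmp12 and Mmp13 belong to the same cluster of MMP genes, so their matches are not independent cases, and enrichment was not tested. Neither motif was in the window of Mmp14, Timp1, Timp2, Timp3 or the other Mmp12 start. These matches describe letters and show no binding.

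The members sat at very different levels. Per kilobase of the gene's exons (GENCODE, GRCm38), Timp2 had a median of 157 CPM per kb over the 10 tumors, Timp1 65.3, Mmp14 46.1 and Mmp2 19.3 CPM per kb. Mmp9 followed at 6.50, Mmp12 at 2.70, Mmp3 at 2.33, Timp3 at 2.24 and Mmp13 at 1.84 CPM per kb. The ranges of Timp2, Timp1, Mmp14 and Mmp2 did not touch their neighbours in that order, except that Mmp2 overlapped with Mmp9. From Mmp9 downwards all neighbouring ranges overlapped, and Mmp3 was above Timp3 in only 5 of 10 tumors. With the length of the principal transcript in place of all exons, Mmp14 was at 105.9 CPM per kb and stood above Timp1 in all 10 tumors. By that length Timp3 was at 3.87 CPM per kb, with Mmp3 at 2.33 and Mmp13 at 1.84, and it was above Mmp3 in 8 of 10 tumors. The inhibitors thus included the most abundant member, while the place of Timp3 near the bottom depended on the length used.

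**Figure D2:**
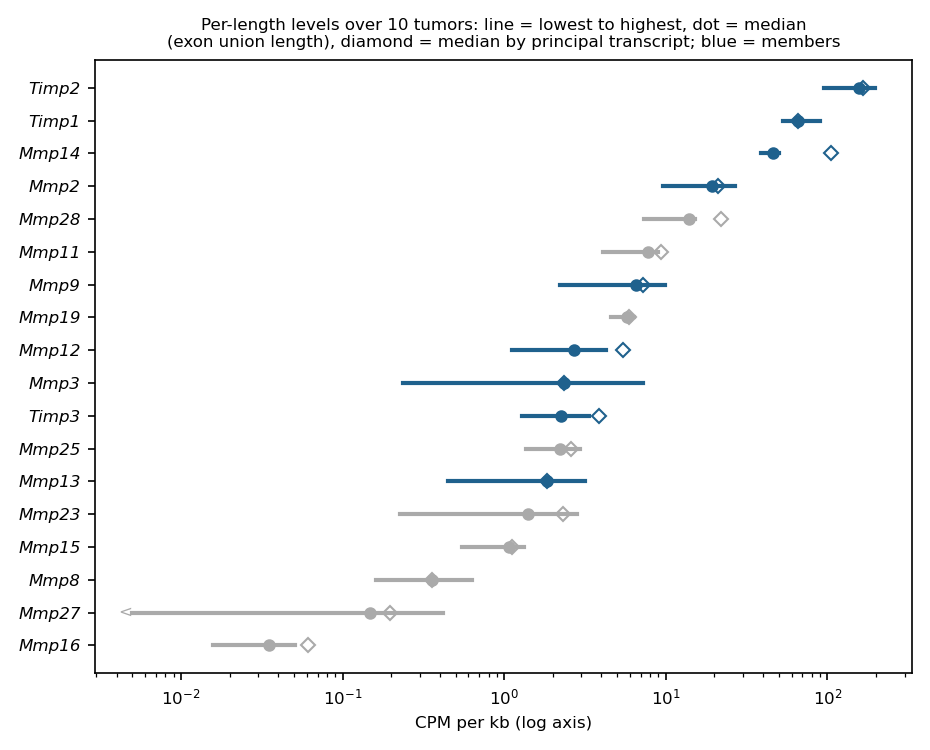
Level per kb in CPM per kb (log axis) of the MMP and TIMP genes with at least 100 counts in all, as the range (line) and median (dot) over 10 tumors by exon union length and the median by principal transcript (diamond), with members in blue and other family genes in grey. Timp2 lies highest with a median of 157 CPM per kb, Mmp3 has the longest range among the members, and the range of Mmp27 starts at 0, off the log axis, as its arrow shows.

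Mmp2 (gelatinase A), which cuts denatured collagen and basement membrane collagen, lies on chromosome 8 at 92827291 to 92853420 with 14 exon blocks. In sgNT tumors 1 to 5 its level was 85.0, 75.0, 51.7, 56.8 and 90.3 CPM. In sgCda tumors 1 to 5 it was 81.0, 66.8, 32.4, 57.1 and 63.5 CPM. The groups overlapped almost throughout, and only sgCda 3 lay below every sgNT tumor. The log2 fold change was -0.26 (SE 0.228, 95% confidence interval -0.76 to 0.25, edgeR adjusted p = 0.9996). It shrank to -0.030 without sgCda 3 and sgCda 4.

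Mmp9 (gelatinase B), stored by neutrophils and also made by macrophages, lies on chromosome 2 at 164940780 to 164955850. The sgNT tumors, in order of replicate, had 21.7, 26.2, 14.1, 8.14 and 20.1 CPM. The sgCda tumors, in the same order, had 32.4, 24.3, 7.81, 35.0 and 28.0 CPM. The sgCda tumors other than 3 were above the sgNT mean of 18.1 CPM, and sgCda 3 was the lowest of all 10. The estimated log2 fold change was 0.50 (SE 0.382, interval -0.34 to 1.34, edgeR adjusted p = 0.9996). Leaving out sgCda 3 gave 0.73, which passed 0.05 only before adjustment (edgeR adjusted p = 0.819). The fold change was 0.64 without sgCda 3 and sgCda 4 together. It was 0.35 without sgCda 4 and 0.30 without sgNT 4, the lowest of the single removals.

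Mmp14 (MT1-MMP) is anchored in the cell membrane and activates the Mmp2 proenzyme in a complex that includes Timp2. It lies on chromosome 14 at 54431612 to 54445364 and was the steadiest member. It was measured at 278, 271, 286, 261 and 297 CPM in sgNT 1 to 5. The corresponding sgCda values were 289, 281, 231, 255 and 255 CPM. The last 3 of these were below every sgNT tumor and the first 2 were within the sgNT range. Between the groups the log2 fold change was -0.089 (SE 0.0720, interval -0.25 to 0.069, edgeR adjusted p = 0.9996). At this precision a fall of more than 15.8% or a rise of more than 4.89% lies outside the 95% interval. It was -0.047 without sgCda 3 and -0.022 without sgCda 3 and sgCda 4.

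Mmp3 (stromelysin 1) cuts proteoglycans and fibronectin and activates other MMP proenzymes. It lies on chromosome 9 at 7445822 to 7455975. In sgNT tumors 1 to 5 its level was 5.90, 2.15, 1.92, 4.40 and 13.1 CPM. In sgCda tumors 1 to 5 it was 7.94, 4.00, 3.41, 0.425 and 6.11 CPM. One tumor at each end set the span, sgNT 5 with 520 counts and sgCda 4 with 12 counts, and the remaining values of the groups were interleaved. The log2 fold change was -0.33 (SE 0.658, interval -1.78 to 1.12, edgeR adjusted p = 0.9996). Its sign depended on single tumors: it was 0.29 without sgNT 5 and 0.12 without sgCda 3 and sgCda 4.

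Mmp12 (macrophage elastase) lies on chromosome 9 at 7344381 to 7369499. The sgNT tumors, in order of replicate, had 27.8, 17.9, 15.5, 30.9 and 25.8 CPM. The sgCda tumors, in the same order, had 17.3, 17.5, 21.2, 8.11 and 23.9 CPM. Of the sgCda tumors, 4 of 5 were below the sgNT mean of 23.6 CPM, and sgCda 4 alone was below the sgNT range. The estimated log2 fold change was -0.42 (SE 0.271, interval -1.02 to 0.17, edgeR adjusted p = 0.9996). It was -0.27 without sgCda 3 and sgCda 4.

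Mmp13 (collagenase 3), a main enzyme for cutting fibrillar collagen in the mouse, lies on chromosome 9 at 7272514 to 7283331. It was measured at 8.40, 1.96, 4.65, 7.92 and 6.43 CPM in sgNT 1 to 5. The corresponding sgCda values were 2.33, 1.99, 5.76, 1.20 and 5.19 CPM. All 5 sgCda tumors were below the sgNT mean of 5.87 CPM, but sgNT 2 was lower than 4 of them. Between the groups the log2 fold change was -0.83, the lowest among the members (SE 0.471, interval -1.87 to 0.21, edgeR adjusted p = 0.9996). Over single tumors left out, it ran from -1.13 (without sgCda 3) to -0.62 (without sgCda 4). It was -0.89 without sgCda 3 and sgCda 4 and -1.05 without sgNT 2, the latter passing 0.05 only before adjustment (edgeR adjusted p = 1).

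Timp1, an inducible inhibitor that also acts as a growth factor, lies on the X chromosome at 20870166 to 20874735. In sgNT tumors 1 to 5 its level was 48.1, 47.3, 58.9, 79.5 and 58.9 CPM. In sgCda tumors 1 to 5 it was 54.1, 48.0, 68.9, 57.1 and 63.5 CPM. Every sgCda value was within the sgNT range, and the means were 58.5 ± 13.0 and 58.3 ± 8.13 CPM (SD). The log2 fold change was -0.0048 (SE 0.147, interval -0.33 to 0.32, edgeR adjusted p = 0.9996), and its sign flipped under several settings.

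Timp2, which inhibits MMPs and also takes part in the activation of Mmp2, lies on chromosome 11 at 118301069 to 118355740 on the minus strand. The sgNT tumors, in order of replicate, had 612, 689, 563, 520 and 642 CPM. The sgCda tumors, in the same order, had 766, 614, 370, 605 and 667 CPM. The sgCda tumors included both the highest (sgCda 1) and the lowest (sgCda 3) of all values, around nearly equal means of 605 ± 65.9 and 605 ± 146 CPM (SD). The estimated log2 fold change was -0.0017 (SE 0.164, interval -0.36 to 0.36, edgeR adjusted p = 0.9996). It was 0.17 without sgCda 3 and sgCda 4.

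Timp3, an inhibitor that stays bound to the matrix and also blocks ADAM and ADAMTS proteases, lies on chromosome 10 at 86300372 to 86349506. It was measured at 18.5, 12.8, 18.0, 27.4 and 25.2 CPM in sgNT 1 to 5. The corresponding sgCda values were 15.9, 11.4, 21.0, 10.5 and 18.9 CPM. Only sgCda 3 exceeded the sgNT mean of 20.4 CPM, and sgCda 2 and 4 were below every sgNT tumor. Between the groups the log2 fold change was -0.39 (SE 0.239, interval -0.91 to 0.14, edgeR adjusted p = 0.9996). Over single tumors left out, it ran from -0.52 (without sgCda 3) to -0.26 (without sgNT 4). It was -0.41 without sgCda 3 and sgCda 4, and -0.52 without sgNT 2, again past 0.05 only before adjustment (edgeR adjusted p = 1).

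**Figure D3:**
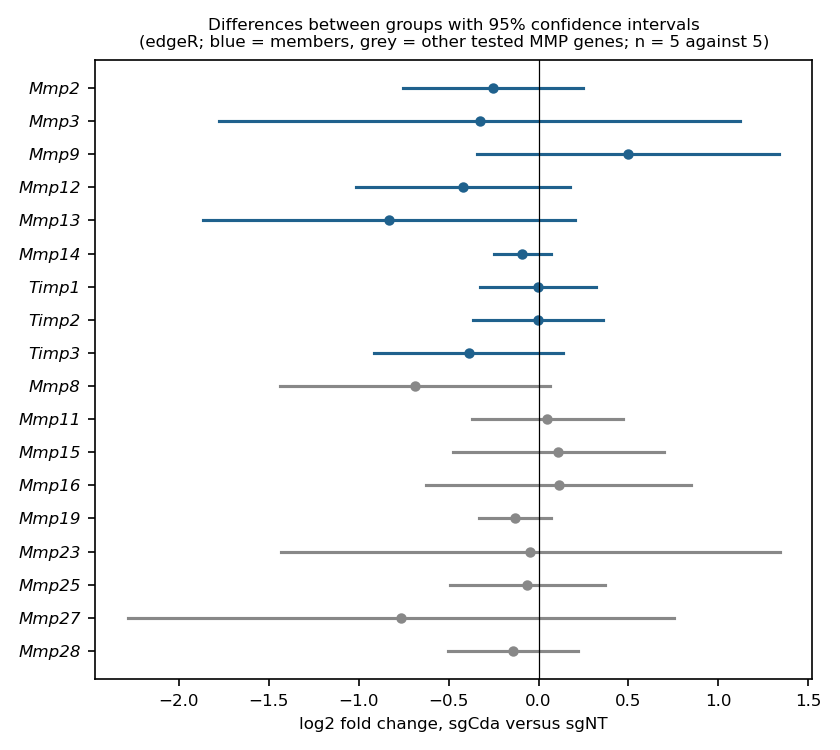
Log2 fold change of sgCda versus sgNT tumors (horizontal axis; points) with 95% confidence intervals (lines) from edgeR for the 9 members in blue and the other 9 MMP genes tested in grey. Every interval includes 0, and the shortest of the members' intervals is that of Mmp14, from -0.25 to 0.069.

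Some members varied together from tumor to tumor. Pearson's r of log2 CPM was computed over the 10 tumors for all 36 pairs of members, with Benjamini-Hochberg adjustment over the pairs. In 7 pairs the adjusted permutation p was under 0.05, and all 7 were positive. They fell into a pair of chains, one of Mmp3, Mmp12, Mmp13 and Timp3 and one of Mmp9, Timp2, Mmp2 and Mmp14. Timp1 was in neither. With Spearman's rho no pair kept an adjusted p under 0.05, and 2 pairs were just above it at 0.0545.

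In the first chain, Mmp13 and Timp3 had r = 0.91 (permutation p = 0.00023, adjusted p = 0.00828) and rho = 0.87 (permutation p = 0.00209, adjusted p = 0.0545). Without the 2 tumors farthest from the median of Mmp13, r was 0.84, and with values centred on their group means it was 0.89. Mmp12 and Mmp13 had r = 0.86 (permutation p = 0.00074, adjusted p = 0.00888) and rho = 0.85 (permutation p = 0.00303, adjusted p = 0.0545), with 0.76 without the 2 farthest tumors. Mmp12 and Timp3 had r = 0.80 (permutation p = 0.00296, adjusted p = 0.0250) and rho = 0.81 (permutation p = 0.00706, adjusted p = 0.0847). Without the 2 farthest tumors that r was 0.62. Mmp3 and Mmp12 had r = 0.82 (permutation p = 0.00834, adjusted p = 0.0429) and rho = 0.58 (permutation p = 0.0881, adjusted p = 0.244). Their relation rests on the tumors at the ends, since r was 0.45 without sgCda 4 and sgNT 5. sgCda 4 was the lowest tumor for all 4 genes, with sgCda 2 and sgNT 2 next for Mmp13 and Timp3. At the other end, sgNT 4 and sgNT 5 were among the 3 highest tumors for Mmp12, Mmp13 and Timp3.

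In the second chain, Mmp9 and Timp2 had r = 0.84 (permutation p = 0.00074, adjusted p = 0.00888) and rho = 0.70 (permutation p = 0.0300, adjusted p = 0.154). Without the 2 tumors farthest from the median of Mmp9, sgCda 3 and sgNT 4, r was 0.61. Mmp2 and Timp2 had r = 0.87 (permutation p = 0.00347, adjusted p = 0.0250) and rho = 0.73 (permutation p = 0.0197, adjusted p = 0.144), with 0.68 without the 2 farthest tumors. Mmp2 and its activator Mmp14 had r = 0.80 (permutation p = 0.00662, adjusted p = 0.0397) and rho = 0.64 (permutation p = 0.0555, adjusted p = 0.197). That relation rests on the tumors at the ends, since r was 0.38 without sgCda 3 and sgNT 5. sgCda 3 was the lowest tumor for all 4 of these genes.

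Leaving out 1 tumor also lowers the number of points, so a lost call is given here with its r. Mmp13 with Timp3 kept an adjusted exact permutation p under 0.05 whichever single tumor was left out. Mmp12 with Mmp13 lost it only without sgCda 4 (r = 0.79), and Mmp9 with Timp2 only without sgCda 3 (r = 0.78). Mmp12 with Timp3 lost it without sgCda 3, sgCda 4, sgNT 4 or sgNT 5, at r from 0.73 to 0.81. Mmp2 with Timp2 lost it without sgCda 3, where r fell to 0.62, and also without sgCda 4, sgNT 3 or sgNT 4, where r was no lower than with all tumors (0.87 to 0.88). Mmp3 with Mmp12 lost it in 8 of 10 removals, but r fell clearly only without sgCda 4 (0.51) and was 0.81 to 0.83 in the other losses. Mmp2 with Mmp14 lost it in 9 of 10 removals, with r at 0.55 without sgCda 3 and 0.76 to 0.83 in the other losses. With sgCda 3 and sgCda 4 both left out, 1 of the 36 pairs had an adjusted exact permutation p under 0.05. It was Mmp9 with Timp2, at r = 0.91 over 8 tumors (adjusted exact permutation p = 0.0241). Mmp13 with Timp3 was then at r = 0.87 (adjusted exact permutation p = 0.0808). Without sgCda 3 alone, or without sgCda 4 alone, the count was 2, and with group-centred values it was 4. High correlations were also common among other genes: of about 10337 genes with a mean log2 CPM of at least 3, r was at least 0.8 with Timp2 for 7.47%, with Mmp9 for 6.93% and with Mmp2 for 4.62%. The share was 1.63% for Timp3, 1.59% for Mmp3, 1.34% for Mmp12, 0.909% for Mmp14 and 0.377% for Mmp13.

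**Figure D4:**
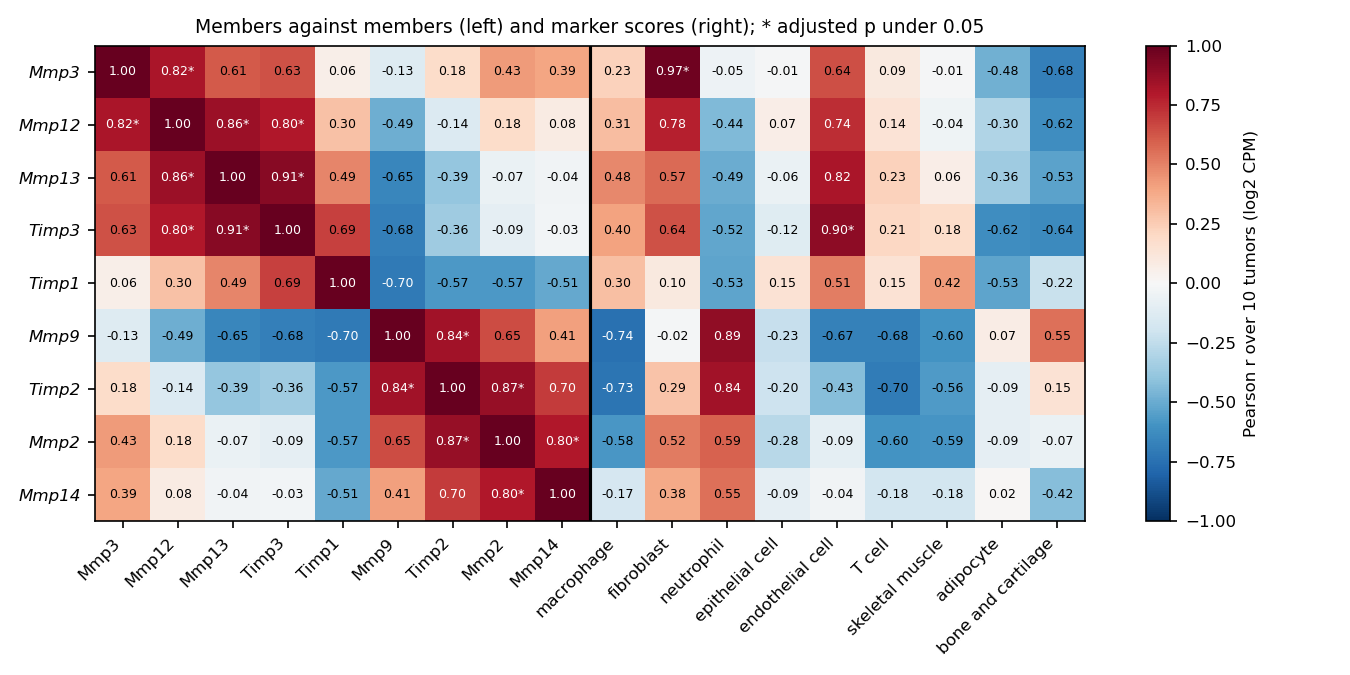
Pearson's r over the 10 tumors between the 9 members (left of the line) and between members and the mean log2 CPM of marker lists for 9 cell types or tissues (right), from -1 in blue to 1 in red, with an asterisk where the adjusted permutation p is under 0.05. The asterisks mark 7 pairs of members, all positive, and 2 relations with marker scores, Mmp3 with fibroblasts (0.97) and Timp3 with endothelial cells (0.90).

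To place these patterns among the cells of a tumor, each member was set against the score of 9 marker lists, the mean log2 CPM of a list's tested genes, which gave 81 relations. Of these, 2 had an adjusted permutation p under 0.05. Mmp3 followed the fibroblast score (10 of 10 markers tested) with r = 0.97 (permutation p = 1e-05, the smallest that 100000 resamples can give, adjusted p = 0.00081). The ranks agreed in all 10 tumors (rho = 1.00, permutation p = 1e-05, adjusted p = 0.00081), and r was 0.96 without sgCda 4 and sgNT 5, the 2 farthest. The score ran from 7.38 to 8.59 in sgNT and from 6.97 to 8.32 in sgCda tumors, with sgNT 5 highest and sgCda 4 lowest, as for Mmp3 itself.

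Not all fibroblast markers took part. The r of Mmp3 with single markers was 0.95 for Postn, 0.92 for Col1a2, 0.81 for Col1a1, 0.75 for Col3a1 and 0.70 for Fap, genes of collagen fibres and of activated fibroblasts. It was 0.25 or less for Lum, Col6a3, Pdgfra, Pdgfrb and Dcn. Postn, which encodes the matrix protein periostin, was at 12.5 CPM in sgCda 4 and 367 CPM in sgNT 5. Mmp2 had the other pattern, with r of 0.90 for Pdgfrb, 0.89 for Pdgfra, 0.86 for Lum and 0.82 for Dcn, and between -0.20 and 0.26 for the remaining 6 markers. Pdgfrb, the receptor found on fibroblasts and pericytes, was lowest in sgCda 3 at 117 CPM, as Mmp2 was, and at 181 to 269 CPM in the other 9 tumors. These values for single markers were looked up after the scores were known and are given as a description of 10 tumors without a test. The difference between Mmp3 and Mmp2 was not tested.

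Timp3 followed the endothelial score (10 of 10 markers tested) with r = 0.90 (permutation p = 0.00059, adjusted p = 0.0239) and rho = 0.87 (permutation p = 0.00219, adjusted p = 0.0887). Without the 2 tumors farthest from the median, sgCda 2 and sgCda 4, r was 0.78. The adjusted exact permutation p went above 0.05 without sgCda 2, sgCda 4, sgNT 1, sgNT 4 or sgNT 5. It was also 0.152 with group-centred values (r = 0.88) and 0.190 without sgCda 3 and sgCda 4 together (r = 0.87). Over all alternatives r stayed between 0.85 and 0.94. All 10 endothelial markers had a positive r with Timp3, from 0.38 for Vwf to 0.96 for Pecam1, the adhesion molecule CD31. Pecam1 ranged from 25.8 CPM in sgCda 2 to 52.8 CPM in sgNT 4, the tumor in which Timp3 was also highest. The score ran from 3.33 to 3.88 in sgNT and from 3.14 to 3.91 in sgCda tumors. Mmp13 had r = 0.82 with the same score (permutation p = 0.00728, adjusted p = 0.0955).

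Mmp9 was nearest to the neutrophil score, with r = 0.89 (permutation p = 0.00203, adjusted p = 0.0548) and rho = 0.79 (permutation p = 0.00889, adjusted p = 0.144). That relation rests on the tumors at the ends, since r was 0.51 without sgCda 3 and sgNT 4, the lowest for both. The relation was not particular to Mmp9. Timp2 had r = 0.84 with the same score (permutation p = 0.00306, adjusted p = 0.0620), and 0.51 without sgCda 1 and sgCda 3. The score covers 5 of 10 listed genes, because Ly6g, Camp, Ngp, Stfa2l1 and Elane averaged 0.115 CPM or less and were not tested. Among the 5 tested, r with Mmp9 was 0.92 for the chemokine receptor gene Cxcr2, 0.89 for S100a8, 0.86 for S100a9, 0.71 for Csf3r and 0.40 for Retnlg. The score ran from 2.40 to 3.31 in sgNT and from 2.05 to 3.72 in sgCda tumors, and 4 of 5 sgCda tumors were above every sgNT tumor, as 3 of 5 were for Mmp9. The score itself was not tested between the groups. Its 5 genes all had positive log2 fold changes. Of them, 0 had an unadjusted edgeR p under 0.05, against 2.5% of all genes tested. Groups did not overlap for 0 of them, against 0.601% of all genes tested. The paper reported no change of neutrophils in sgCda Panc02 tumors. The part of neutrophil number in the Mmp9 levels was not tested. Mmp12, known as the macrophage elastase, had r = 0.31 with the macrophage score (permutation p = 0.390, adjusted p = 0.714), and its single macrophage markers ran from -0.43 for Mertk to 0.55 for Msr1. With the fibroblast score Mmp12 had r = 0.78 (permutation p = 0.00782, adjusted p = 0.0955). With the endothelial score it had r = 0.74 (permutation p = 0.00825, adjusted p = 0.0955). Without sgNT 4 and sgCda 4, the 2 farthest, these were 0.65 and 0.54.

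**Figure D5:**
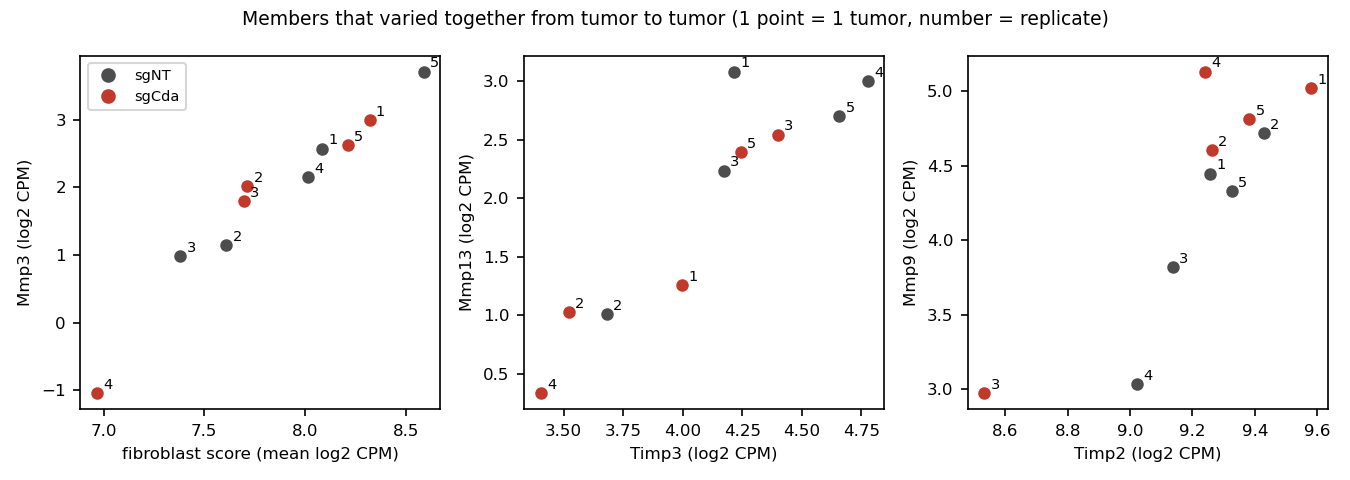
Left, Mmp3 against the fibroblast score. Middle, Mmp13 against Timp3. Right, Mmp9 against Timp2. All axes are log2 CPM, each point is 1 tumor labelled with its replicate number, grey for sgNT and red for sgCda. Points of both groups lie along the same rising trends (r of 0.97, 0.91 and 0.84), with sgCda 4 at the low end of the first and second panels and sgCda 3 at the low end of the third.

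The genes whose levels were most like those of each member over the 10 tumors are listed as a description only. Mmp13 was most like Timp3 itself (r = 0.91), then Trdmt1 (0.90) and Zbtb7b (0.86). Timp3 was most like Pecam1 (0.96), followed by Vcan (0.93), which encodes the matrix proteoglycan versican, and Pdpn (0.92). Mmp3 was most like Atp5j2 (0.95), Postn (0.95) and Elk1 (0.94), and Mmp12 most like Mcat (0.93), Haus2 (0.91) and E130309D02Rik (0.90). Mmp2 was most like Cdc42ep1 (0.97), Ephb4 (0.97) and B4galt2 (0.95), and Mmp14 most like C130026I21Rik (0.91), Zdhhc9 (0.90) and A930004D18Rik (0.90). Mmp9 was most like Lpin3 (0.99), Strbp (0.97) and Scml4 (0.97). Timp2 was most like Sema3b (0.98), Ptgs1 (0.97) and Parva (0.97), and Timp1 most like Ugdh (0.94), Psmd12 (0.94) and Hdgf (0.94).

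Around the members, the other 18 MMP family genes (Timp4 included) were mostly low. Of these, 9 passed the filter and 0 of 9 had an adjusted or an unadjusted edgeR p under 0.05, with a median log2 fold change of -0.062. Mmp28 (epilysin) was the highest per length of these at a median of 14.0 CPM per kb, above Mmp9, and averaged 55.0 ± 3.14 CPM (SD) in sgNT against 49.8 ± 12.4 CPM in sgCda tumors (log2 fold change -0.14). The extremes of change were Mmp16 (0.11) and Mmp27 (-0.76, interval -2.28 to 0.76), both under 1 CPM. Mmp1a, an interstitial collagenase that neighbours Mmp3 on chromosome 9, had 0 counts in all 10 tumors, while Mmp7 had 1 count, Mmp20 2 and Mmp1b 2 counts in total. Within the chromosome 9 cluster, which runs from Mmp13 at 7272514 to Mmp7 at 7699585, reads thus came chiefly from Mmp12, Mmp3 and Mmp13 (6882, 1711 and 1526 counts over all tumors).

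Among 18 activators, inhibitors and binding partners of MMPs, 17 were tested and 0 had an adjusted p under 0.05. At an unadjusted p under 0.05 there was 1 of 17 genes, against 2.5% of all genes tested. It was Furin, the convertase that removes the prodomain of Mmp14. Its level was 161 to 170 CPM in sgNT tumors and 130 to 157 CPM in sgCda tumors, so the groups did not overlap. Among all genes tested, groups did not overlap for 0.601%. The log2 fold change of Furin was -0.20 (interval -0.33 to -0.068, edgeR adjusted p = 0.9996). Lcn2, which binds Mmp9, had the highest fold change of the list (0.67, interval -0.18 to 1.52) and the serpin gene Serping1 the lowest (-0.29, interval -0.65 to 0.076). Bsg, the MMP-inducing surface protein basigin, was the most abundant per length at a mean of 225 CPM per kb with a log2 fold change of -0.016 (interval -0.24 to 0.21).

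Of 16 ADAM and ADAMTS metalloproteinases, all tested, 0 had an adjusted p under 0.05. At an unadjusted p under 0.05 there was Adam33 alone, 1 of 16, against 2.5% of all genes tested. Adam33 had 0.496 to 0.980 CPM in sgNT and 0.963 to 1.71 CPM in sgCda tumors. Its log2 fold change was 0.85 (interval 0.28 to 1.41, edgeR adjusted p = 0.9996). Only 1 sgNT tumor lay above the lowest sgCda tumor, at a level of few reads. Adamts12 had the lowest fold change (-0.47, interval -1.46 to 0.52), and Adam10, a main sheddase of membrane proteins, was the highest per length with a fold change of -0.027 (interval -0.17 to 0.12).

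Of 20 AP-1, ETS and Runx2 factors and cytokines known to induce MMP genes, all tested, 0 had an adjusted p under 0.05. The median log2 fold change was -0.051, and 14 of 20 were negative, against 7205 of the 15299 genes tested. Il1b, the interleukin-1β gene, was the 1 of 20 with an unadjusted p under 0.05, against 2.5% of all genes tested. Il1b had 19.9 to 32.0 CPM in sgNT and 13.1 to 24.0 CPM in sgCda tumors. Its log2 fold change was -0.44 (interval -0.82 to -0.062, edgeR adjusted p = 0.9996). Its groups overlapped. Fosb had the lowest fold change (-0.61, interval -1.28 to 0.054), Il1a the highest (0.22, interval -0.80 to 1.25), and Jun, the most abundant per length, had -0.051 (interval -0.29 to 0.18).

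Reads of some members cannot be fully separated from their neighbours, since the strand setting of the counting is not given in the sources used here. Mmp12 shares 157 exon bases with Mmp1b on the opposite strand, but Mmp1b had at most 1 count in any tumor. Timp3 shares 1733 exon bases with Syn3 on the opposite strand, which had 127 to 279 counts per tumor against 297 to 1002 for Timp3. The other 7 members share no exon bases with another gene.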

How the data were processed

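In all, 10 tumors were profiled (5 sgNT, 5 sgCda). The paper describes stranded mRNA libraries from TRIzol RNA in a section on unique mutations, which does not name these tumors. Bulk RNA-seq reads of the paper were mapped to GRCm38 (mm10) with TopHat and Bowtie and assigned to Ensembl genes with HTSeq. The strand setting and the annotation release are not given in the sources used here. The deposited values are raw read counts, 1 column per tumor. Reads mapping to several genes are usually left out by such counting, which lowers near-identical genes.

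From these counts, 5 summary lines were dropped, genes were filtered with filterByExpr (minimum count 10, minimum total 15), scaled with TMM factors and compared with edgeR 4.0.16 in R 4.3.3 (quasi-likelihood test, Benjamini-Hochberg over 15299 genes, no covariate). The labels number the tumors but do not say outright that each came from a mouse of its own, so p-values measure the spread between these tumors. CPM are relative to scaled library size, and log2 CPM used a prior count of 2. Correlations used permutation tests (two-sided, 100000 resamples, exact with fewer than 10 tumors). The test and the correlations were tested on simulated data.

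The members and all gene lists were chosen with earlier results of these data known. Named were all members, and from each further list the highest and lowest fold change, the highest per-length level and any unadjusted p under 0.05, and per member the 3 most alike genes.

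Alternatives were DESeq2 1.42.0 size factors and Wald test, library totals, limma-voom (limma 3.58.1), other filters, the replicate block, removal of the 20 most abundant genes or of tumors, group centring and a prior count of 0.5. The skeletal muscle score as a covariate was chosen after seeing the data.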

Additional observations from a re-analysis of the deposited data

Results flagged for a closer look

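Among 36 sets of 5 values (each member and each marker score in each group), 3 held a tumor far from the other 4 by Dixon's test, where chance gives about 1.8, or 1 in 20. The log2 CPM of Mmp9 in sgCda 3 was 2.98, against 4.60 to 5.13 in the other sgCda tumors. The neutrophil score of the same tumor was 2.05, against 3.34 to 3.72 in the other sgCda tumors. The T cell score of sgNT 3 was 5.27, against 4.72 to 4.84 in the other sgNT tumors. In sgCda 3 the macrophage (7.84), T cell (5.77), endothelial (3.91) and skeletal muscle (7.16) scores were each the highest of the 10 tumors. Over all 10 tumors, r of Mmp9 with these scores was -0.74, -0.68, -0.67 and -0.60 in that order. The adjusted permutation p ran from 0.128 to 0.265. The part of any of them in the low Mmp9 level of sgCda 3 was not tested.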

How the results depend on the processing

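Under 20 alternatives, 0 members had an adjusted p under 0.05, and Mmp2, Mmp9, Mmp12, Mmp13, Mmp14 and Timp3 kept their direction. The sign of Timp1 reversed with library totals (0.0076), limma-voom (0.0091), the replicate block (0.011), without the 20 most abundant genes (0.0043) and over single tumors left out (-0.073 to 0.13). That of Timp2 reversed with library totals (0.0045), without the 20 genes (0.0019), with the skeletal muscle covariate (0.072), without sgCda 3 and 4 (0.17) and over single tumors left out (-0.10 to 0.13). That of Mmp3 reversed without sgCda 3 and 4 (0.12) and over single tumors left out (-0.65 to 0.29). All 3 stayed far from the threshold, and the cause was not tested. Members with an unadjusted p under 0.05 numbered 1 with the replicate block (Mmp2), 1 with the muscle covariate (Mmp9) and 0 to 2 over single tumors left out (Mmp9 and Mmp13 without sgCda 3; Mmp13 and Timp3 without sgNT 2). Over all genes that count was 830 with a filter of 1 count in any tumor, which tests more genes, and 280 to 747 over single tumors left out, the highest without sgCda 3. Pairs with an adjusted p under 0.05 numbered 4 with group centring, 1 without sgCda 3 and 4, and 2 to 6 over single tumors left out. Relations with marker scores numbered 1, 1 and 1 to 5 in the same order, the highest without sgCda 1, and Mmp3 with the fibroblast score held in all 14 alternatives (r 0.96 to 0.98). The smallest edgeR adjusted p of any member under any of these was 0.819.

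The replicate numbers recur in both groups, and whether they pair the tumors is not known. The correlation of same-numbered deviations ran from -0.43 to 0.34. Of the sgNT tumors, 2 of 5 correlated best with the sgCda tumor of their own number. With so few numbers this check cannot settle pairing, so the replicate block is given only as an alternative. With 5 tumors a group, precision was lowest for Mmp13 and Mmp3, whose 95% intervals of the log2 fold change ran from -1.87 to 0.21 and from -1.78 to 1.12.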
